A study of Mus musculus with 8 samples.

Results

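The cytosolic ribosomal protein genes were 85 of the 20170 genes in the count matrix. They were taken by symbol, as every Rpl or Rps name followed by a number together with Rplp0, Rplp1, Rplp2 and Rpsa, and the 10 Rps6k kinase genes and 3 pseudogene symbols were left out. Of the 85 genes, 34 carried a small-subunit name and 51 a large-subunit name. The names also took in 8 genes that are paralogs of a subunit gene or are not subunits (Rpl22l1, Rps27l, Rpl39l, Rpl36al, Rpl3l, Rps27rt, Rpl7l1 and Rps19bp1), which left 77 others. In both CD4+ and CD8+ cells 84 of the 85 genes passed the filter on low counts, and Rpl3l did not.

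The cytosolic ribosome pairs a small subunit, which decodes the mRNA, with a large subunit, which forms the peptide bonds. The mRNAs of its proteins are among the most abundant of a lymphocyte and begin with a run of pyrimidines, through which their translation follows signalling by mTORC1. Resting T cells keep a large part of these mRNAs out of polysomes, and T cells stimulated through the antigen receptor make new ribosomes before they divide.

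Splenic T cells of WT and SDHA-KO mice were profiled by droplet single-cell RNA sequencing of transcript 3′ ends, in 8 libraries. SDHA, the product of Sdha, is the catalytic subunit of mitochondrial complex II. SDHA-KO mice carried Sdha fl/fl with Cre under the Cd4 promoter, which is active in the precursors of CD4+ and CD8+ T cells alike, and each genotype gave unstimulated cells and cells stimulated over 48 hours (anti-CD3 at 5 μg/mL plus anti-CD28 at 2.5 μg/mL). Each of the 4 groups held 2 libraries, and the labels do not say whether these came from separate mice, so the p-values measure only the spread between these libraries. Dead cells were removed with a kit before the libraries were made. The CD4+ and CD8+ classes and the clusters named Naive, Treg, Tcm (central memory) and Tem (effector memory) were the authors' annotation.

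UMI counts (unique molecular identifiers, each standing for 1 captured mRNA molecule) were summed per library over the cells of a class, which gave 6776027 to 34087903 UMIs for CD4+ and 3640136 to 22311319 for CD8+ sums. The deleted gene, Sdha, stood at 92.5 and 91.8 CPM (counts normalized to library size) in WT and 45.8 and 46.7 in SDHA-KO unstimulated CD4+ cells, and at 89.9 and 86.3 against 59.97 and 55.9 CPM in stimulated CD8+ cells. It fell in all 4 comparisons by genotype (log2 fold changes -1.47 to -0.54), although a 3′ tag can lie outside the deleted exons. Among cell type markers, the summed level of the 6 T cell genes was 2226 to 5239 CPM, with none at 0. The 4 gamma-delta T cell receptor genes in the matrix summed to 232 and 174 CPM in SDHA-KO unstimulated and 253 and 259 in SDHA-KO stimulated CD8+ cells, against 28.8 and 26.1 and 17.6 and 20.6 in WT, with none at 0 in any of these libraries. B cell markers summed to 345 and 64.1 CPM in the SDHA-KO stimulated CD8+ sums, and 46 of 12846 cells carried one of 23 barcodes found in more than 1 library.

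Transcripts of ribosomal protein genes are known to start at a short pyrimidine run. The 15 bases on each side of the annotated start are shown for genes that moved strongly in the results below. These moved on stimulation or between genotypes, and the stalk gene Rplp0 is shown beside them. Annotated starts were not checked here against the true transcript starts. A window without a pyrimidine run therefore does not show that the mRNA lacks one. RefSeq promoter sequences (GRCm38.p6) matched 65 of the 85 symbols. The letters CTTTC, searched on the strand of the gene within 30 bases on each side of the start, were present in 23 of these 65 genes (35.4%), in 2459 of 26960 other genes (9.12%) and in 6 of 69 genes of the mitochondrial ribosome (8.70%). A match describes the letters alone, and capitals mark it in the sequences printed 5′ to 3′ here.
Rps27: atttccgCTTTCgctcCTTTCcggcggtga
Rpl7a: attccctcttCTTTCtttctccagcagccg
Rps2: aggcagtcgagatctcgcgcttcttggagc
Rplp0: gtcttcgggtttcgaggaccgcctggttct
Rpl41: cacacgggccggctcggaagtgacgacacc
Rps28: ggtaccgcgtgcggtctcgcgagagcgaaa
Rps21: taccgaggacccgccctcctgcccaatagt
Rpl39: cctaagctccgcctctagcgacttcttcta
Rps27l: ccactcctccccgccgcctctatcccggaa
Rpl22l1: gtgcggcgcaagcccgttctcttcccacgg
The Rps27 window lies at chr3:90213634-90213663 (minus strand), Rpl7a at chr2:26910792-26910821 (plus strand), Rps2 at chr17:24720048-24720077 (plus strand), Rplp0 at chr5:115559452-115559481 (plus strand), Rpl41 at chr10:128549154-128549183 (minus strand), Rps28 at chr17:33824548-33824577 (minus strand), Rps21 at chr2:180257364-180257393 (plus strand), Rpl39 at chrX:37085208-37085237 (minus strand), Rps27l at chr9:66946071-66946100 (plus strand) and Rpl22l1 at chr3:28805493-28805522 (plus strand). Each window takes the last bases before the gene and the first of its first exon, and Rps21 and Rps27l have 2 starts each in the RefSeq table, of which the upstream one is shown. Of these 10 windows, those of Rps27 and Rpl7a held the letters and the other 8 did not. Rps28, Rps21 and Rpl39, which fell on stimulation of WT cells in both classes, as Rps27 did, were among the 8.

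The 85 genes together held a large part of the mRNA molecules counted in unstimulated T cells, and over all cells a smaller share after stimulation. In CD4+ cells their share of UMIs was 34.6 and 34.8% in the WT unstimulated libraries (replicates 1 and 2), 35.6 and 32.7% in SDHA-KO unstimulated, 28.4 and 29.4% in WT stimulated and 29.99 and 28.9% in SDHA-KO stimulated. The CD8+ shares were 38.98 and 39.3%, 37.3 and 35.4%, 24.2 and 25.8% and 25.5 and 25.6% in the same order. Over all cells the 4 stimulated libraries lay below the 4 unstimulated ones in both classes, while the genotypes overlapped after stimulation and, among CD4+ cells, before it. The mean difference between stimulated and unstimulated libraries was -5.24 percentage points in CD4+ and -12.5 in CD8+ cells (exact permutation test within genotype, two-sided p = 0.0556, the smallest that 36 arrangements allow). In CD4+ cells this order depended on which cells were taken. With cells under 10% mitochondrial UMIs the CD4+ shares were 34.6 and 34.8% in WT unstimulated, 35.6 and 32.7% in SDHA-KO unstimulated and 33.9 and 34.7% in WT stimulated libraries, which overlapped, and the WT change was -0.410 percentage points in CD4+ and -6.80 in CD8+ cells. Among cells that the authors labelled Tem in WT CD4+ libraries the share was 26.02 and 27.1% unstimulated and 34.6 and 35.4% stimulated. The authors integrated unstimulated and stimulated cells separately, and the label held at least 79 cells per library before and 319 after stimulation. It need not name the same cells in both states, so these values do not give a change within one population. With 2 libraries against 2, a genotype comparison cannot reach a two-sided exact p below 0.33.

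**Figure D1:**
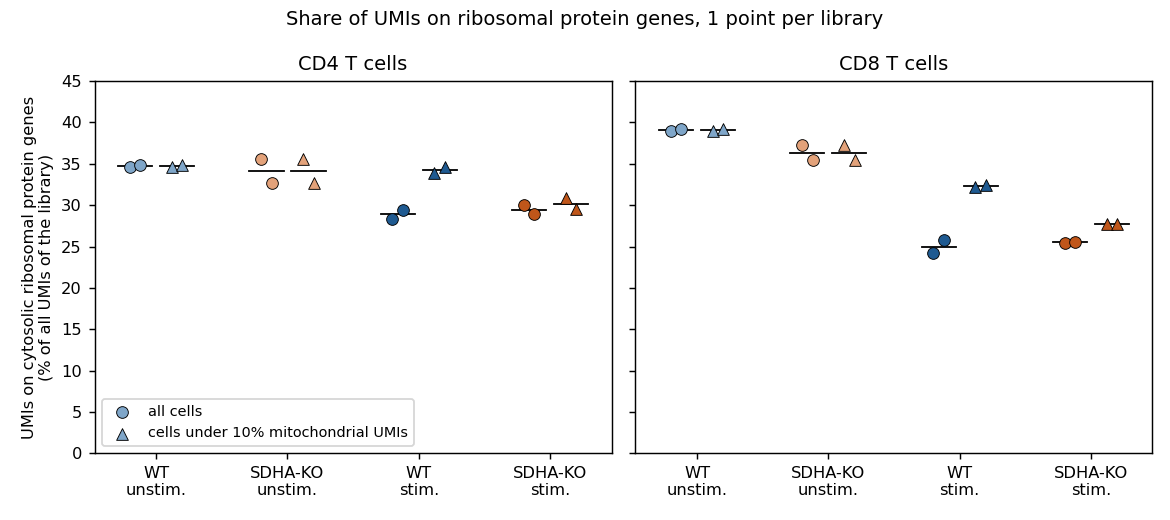
Share of all UMIs on the 85 ribosomal protein genes (percent, vertical axis) in each library, for CD4+ and CD8+ cells. Circles stand for all cells, triangles for cells with under 10% mitochondrial UMIs, and lines for the mean of 2 libraries. With all cells, WT and SDHA-KO stimulated libraries lie together (28.4 and 29.4% against 29.99 and 28.9% in CD4+ cells), and with cells under 10% the WT libraries lie above the SDHA-KO ones.

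The stimulated libraries differed in another way that touched this share. Mitochondrially encoded mRNAs made up 7.59 and 7.01% of UMIs in WT and 2.41 and 2.36% in SDHA-KO stimulated CD4+ cells, and 10.3 and 8.61% against 4.56 and 4.62% in CD8+ cells. In WT stimulated CD4+ cells, the quartile of cells with the least mitochondrial RNA gave the ribosomal protein genes 36.2 and 37.1% of the UMIs of nuclear genes, at a median of 62056 and 63439 UMIs per cell. The next quartiles held 28.2 and 30.1%, 15.3 and 15.3% and 17.9 and 17.9%, and the last had a median of 9075 and 9329 UMIs per cell. The lower shares thus lay in cells with more mitochondrial and fewer total UMIs.

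In SDHA-KO stimulated CD4+ cells the 4 quartiles held 33.6 and 32.5%, 32.9 and 30.9%, 30.98 and 29.9% and 18.6 and 22.8%, so that only the last quartile stood apart. Median mitochondrial percentages in that last quartile were 10.4 and 8.21% in SDHA-KO and 27.5 and 25.4% in WT. In CD8+ cells the share dropped after the first quartile in WT (33.1 and 34.3%, then 13.6 and 15.3%). In SDHA-KO CD8+ cells the quartiles held 30.1 and 29.6%, 28.5 and 28.7%, 21.7 and 22.1% and 11.3 and 11.4%. The share there dropped after the second quartile and again after the third. Unstimulated libraries showed no such step, with 35.5 and 34.96% in the first and 35.9 and 35.99% in the last quartile of WT CD4+ cells.

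**Figure D2:**
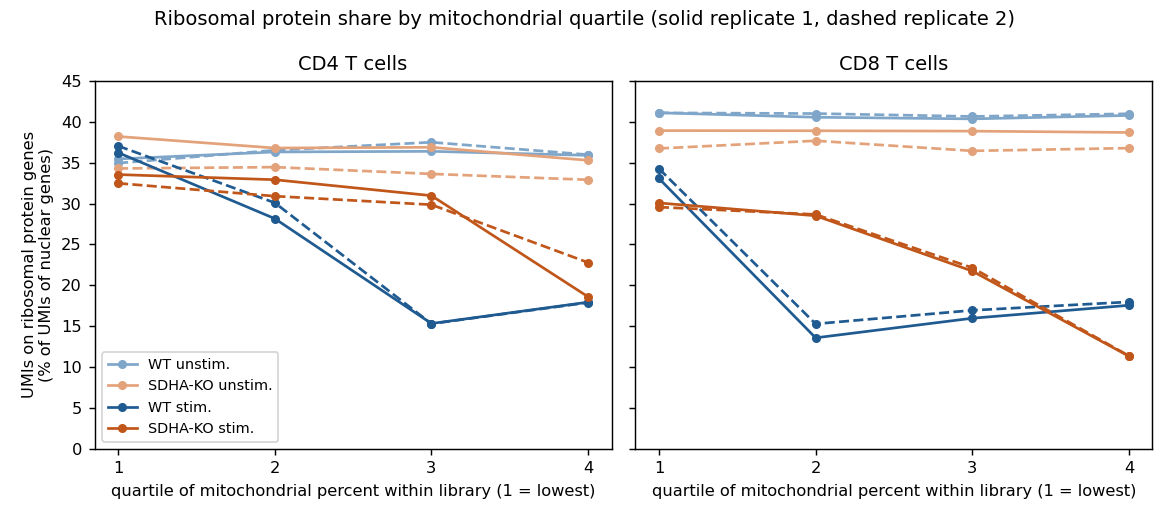
Ribosomal protein share of nuclear UMIs (percent, vertical axis) by quartile of cells ranked on mitochondrial UMI percentage within each library (horizontal axis). Solid lines are replicate 1 and dashed lines replicate 2. In the WT stimulated CD8+ libraries the share drops from 33.1 and 34.3% in the first quartile to 13.6 and 15.3% in the second, and the unstimulated libraries stay nearly level.

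Restricting the sums to cells with under 10% mitochondrial UMIs kept 336 of 859 and 396 of 967 WT stimulated CD4+ cells in replicates 1 and 2, and 988 of 1137 and 1156 of 1284 SDHA-KO ones. It kept 205 of 844 and 244 of 834 WT and 332 of 511 and 254 of 396 SDHA-KO stimulated CD8+ cells, and nearly all unstimulated cells. In the cells kept, the ribosomal protein genes held 33.9 and 34.7% of UMIs in WT and 30.8 and 29.5% in SDHA-KO stimulated CD4+ libraries. The CD8+ shares were 32.2 and 32.4% and 27.7 and 27.7%. The genotypes no longer overlapped in either class, and the SDHA-KO libraries were the lower ones. Whether mitochondrial content accounts for the difference between both sets of cells was not tested, and results below that depend on the choice of cells are given for both.

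Counted per cell, a WT stimulated CD4+ cell of the kept set held a median of 20846 and 21823 ribosomal protein UMIs, against 8608 and 8300.5 in SDHA-KO. Over all stimulated CD4+ cells the medians were 1751 and 1795 in WT and 7780.0 and 7638 in SDHA-KO, so the order of the genotypes turned with the choice of cells. Kept CD8+ cells held 21963 and 21547 in WT and 13855 and 13609 in SDHA-KO. Unstimulated WT cells, for comparison, held 2453 and 2615 (CD4+) and 3398 and 3689 (CD8+). UMIs per cell depend on capture and sequencing depth as well as on the RNA of a cell, and these cannot be told apart here.

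The first comparison asked how the single genes moved when WT T cells were stimulated. Each gene was tested with edgeR's quasi-likelihood test on the library sums, and a gene was called when its p-value, adjusted by Benjamini-Hochberg over all genes tested, was under 0.05. Fold changes are log2 values ± SE, on CPM scaled by TMM, a method that sets library sizes so that most genes do not change. A rise or fall on this scale is relative to the other genes and does not give the change in UMIs per cell. In CD4+ cells 12 of the 84 genes rose and 52 fell, against 66.3% of all genes called, 36.2% higher and 30.1% lower. Their median log2 fold change was -0.35, and that of all genes tested 0.081. Among small-subunit names 5 rose and 24 fell of 34, and among large-subunit names 7 rose and 28 fell of 50. In CD8+ cells 4 rose and 77 fell, with a median of -0.98 against 0.088 for all genes, 65.7% of which were called (35.5% higher, 30.3% lower). Scaling by library size alone moved the median of all genes to 0.30 in CD4+ and 0.57 in CD8+ cells, and gave 27 rises and 37 falls in CD4+ and 8 and 60 in CD8+ cells, with medians of -0.13 and -0.50 over the ribosomal protein genes. The share of all genes called on that scale is not given here.

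Of the 84 genes, Rps27, a zinc-binding protein of the small subunit, had the lowest log2 fold change in both classes. In CD4+ cells Rps27 stood at 12679.5 and 12716 CPM in the WT unstimulated and 2148 and 2596 in the WT stimulated libraries. In CD8+ cells it went from 14460.4 and 14693 to 1687 and 2112 CPM. The stimulated libraries lay far below the unstimulated ones in both classes (CD4+ -2.42 ± 0.11, edgeR adjusted p = 5.4e-09, and CD8+ -2.94 ± 0.098, edgeR adjusted p = 8.0e-10). Rps27 and its near-identical retrogene copy Rps27rt may share reads, so their separate values are uncertain, and Rps27rt fell as well (-1.93 ± 0.13 in CD4+ and -2.48 ± 0.14 in CD8+ cells).

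Other small-subunit genes fell as well. Rps29, a zinc-binding protein of the small-subunit head, stood at 15907 and 16005 CPM before and 4511 and 5472 after stimulation of WT CD4+ cells (-1.68 ± 0.10). Rps28 went from 6685 and 6550.1 to 2174 and 2666 CPM (-1.45 ± 0.11). Rps21 went from 7611 and 7797 to 2891 and 3308 CPM (-1.31 ± 0.11). No stimulated library reached an unstimulated one for any of these genes. The falls were -2.14 ± 0.098, -2.10 ± 0.10 and -1.86 ± 0.087 in CD8+ cells, where Rps24, which is needed to process the precursor of the small-subunit rRNA, fell by 1.97 ± 0.071, from 13738 and 13903 to 3313 and 3765 CPM.

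A few genes rose. Rps2, a protein at the mRNA entry of the small subunit, stood at 3488 and 3419 CPM in WT unstimulated and 7597 and 7487 in WT stimulated CD4+ cells (1.13 ± 0.081, edgeR adjusted p = 2.4e-07). In CD8+ cells it went from 4656 and 4543 to 5838 and 5931 CPM (0.36 ± 0.060). Rpl7a, of the large subunit, went from 1199 and 1232 to 1902 and 2019 CPM in CD4+ cells (0.69 ± 0.087) and did not pass the test in CD8+ cells (0.028 ± 0.072, adjusted p = 0.74 by edgeR). Rps27l, a paralog of Rps27 that p53 is known to induce, rose from 118 and 111 to 418 and 427 CPM in CD4+ and from 128 and 116 to 391 and 410.4 in CD8+ cells (1.89 ± 0.11 and 1.72 ± 0.10). Rps19bp1, which binds Rps19 and regulates the deacetylase SIRT1, rose by 0.82 and 0.62, and Rpl7l1, a protein of pre-ribosomes related to Rpl7, by 0.63 and 0.45. Neither of Rps19bp1 and Rpl7l1 is a subunit of the mature ribosome.

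**Figure D3:**
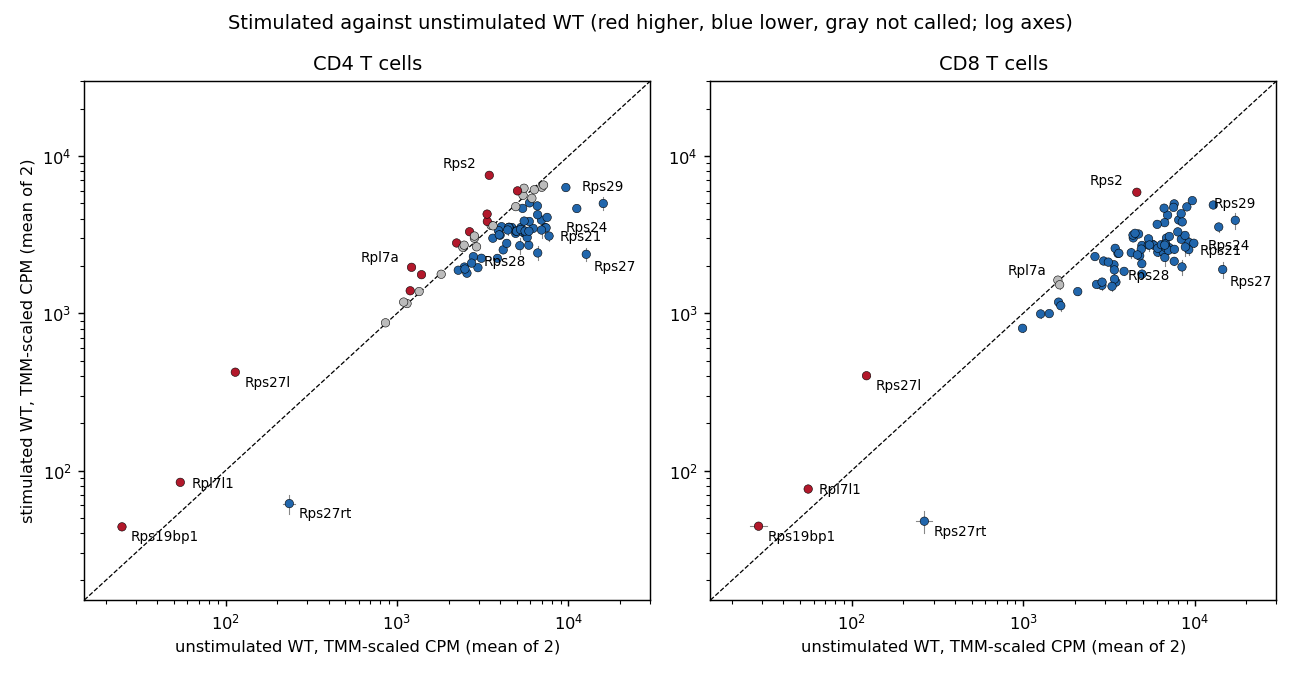
Level of each ribosomal protein gene in WT unstimulated (horizontal) and WT stimulated (vertical) libraries, as TMM-scaled CPM on log axes, for CD4+ and CD8+ cells. Points are means of 2 libraries, gray lines span both, and red, blue and gray mark genes called higher, called lower and not called, without genes under 10 CPM. Most points lie below the diagonal, Rps27 lowest against its start and Rps27l above it. In cells under 10% mitochondrial UMIs the CD4+ split was instead 34 higher and 24 lower.

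The other genes spread between these ends. In WT CD4+ cells the 12 genes that rose included Rpl14, Rpl15, Rpl28, Rpl4, Rpl41, Rpl7a, Rpl7l1, Rps12, Rps19bp1, Rps2 and Rps27l, and the 20 that did not pass the test lay between -0.41 (Rpl39l) and 0.18 (Rpsa). Large-subunit genes ran from Rpl37a (-1.06 ± 0.086), at 7274 and 7321 CPM before and 3252 and 3761 after, to Rpl7a (0.69 ± 0.087). In CD8+ cells 3 genes did not pass the test, among them Rpl39l and Rpl7a, and large-subunit genes ran from Rpl39 (-1.74 ± 0.11) to Rpl7l1 (0.45 ± 0.084). Genes given here as ends of a range or as exceptions were named after their values were seen.

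With only cells under 10% mitochondrial UMIs, WT CD4+ cells showed 34 rises and 24 falls on stimulation (median 0.073, and 69.7% of all genes called), so the balance of directions turned. In CD8+ cells 12 rose and 59 fell (median -0.40, background 67.7%). Rps27, Rps29 and Rps2 had the same direction in these cells. Rps27 changed by -1.997 ± 0.10 and -2.40 ± 0.070 in CD4+ and CD8+ cells, Rps29 by -1.27 ± 0.093 and -1.64 ± 0.071, and Rps2 by 1.55 ± 0.079 and 0.90 ± 0.051. Rpl41, whose product is a short basic peptide of the large subunit, stood at 5036 and 4696 CPM before and 7974 and 7966 after stimulation of CD4+ cells (0.71 ± 0.074).

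SDHA-KO cells were compared with their own unstimulated libraries in the same way. In CD4+ cells 15 genes rose and 49 fell (69.8% of all genes called), and in CD8+ cells 7 rose and 70 fell (68.2%). Of all genes, 36.6% rose and 33.2% fell in CD4+, and 37.2% and 30.9% in CD8+ cells. The medians over the ribosomal protein genes were -0.36 and -0.68. Scaling by library size alone gave 29 rises and 42 falls in CD4+ and 13 and 54 in CD8+ cells, and the share of all genes called on that scale is not given here. Rps27 stood at 11197 and 9727 CPM in unstimulated and 2389 and 2166.3 in stimulated SDHA-KO CD4+ cells (-2.20 ± 0.11), and it fell by 2.66 in CD8+ cells. Rps2 rose less than in WT CD4+ cells, a difference that passed the interaction test given below, from 3712 and 3275 to 5147 and 4792 CPM (0.51 ± 0.080). Rpl41 fell here, from 5246 and 4774 to 3212 and 3018 CPM in CD4+ cells (-0.69 ± 0.077), whereas it rose in WT cells (0.25 ± 0.077).

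The comparison at the centre of the study set SDHA-KO against WT after stimulation. Over all CD4+ cells 19 of 84 genes were higher and 12 lower in SDHA-KO, with a median of 0.055, while 43.2% of all genes were called (22.7% higher, 20.5% lower). Over all CD8+ cells 29 were higher and 6 lower, with a median of 0.14 and a background of 50.4% (26.8% higher, 23.5% lower). The share of the 84 genes called was near the background in CD4+ cells, and in CD8+ cells it was above it in the higher direction and below it in the lower one. Scaling by library size alone gave 28 higher and 12 lower in CD4+ (23.9% and 19% of all genes) and 23 and 11 in CD8+ cells (23.7% and 26.5%). The CD4+ count was 47 without SDHA-KO unstimulated replicate 1 (40.1% of all genes) and 17 without SDHA-KO stimulated replicate 2 (34.4%), and the CD8+ count was 19 without SDHA-KO stimulated replicate 2 (44.1%). At a tested minimum of 1.2-fold, 8 genes in CD4+ and 6 in CD8+ cells were called, against 26.3% and 34.4% of all genes. The gamma-delta markers were also higher in SDHA-KO, at 253 and 259 CPM against 17.6 and 20.6 in CD8+ and 20.1 and 14.9 against 4.90 and 4.85 in CD4+ cells. So were the 5 myeloid markers, which summed to 150.3 and 163 CPM in SDHA-KO and 86.03 and 80.5 in WT CD4+ cells, and 144 and 140.1 against 89.4 and 88.7 in CD8+ cells, and the part of either list in these counts was not tested. In the strict class, CD8+ cells with a Cd8a or Cd8b1 UMI and no Cd4 or Trdc UMI, 41 genes were higher and 5 lower (25% and 24.4% of all genes in that class). The share of UMIs on the genes there was 24.5 and 26.2% in WT and 28.9 and 27.6% in SDHA-KO. This class kept 736 of 844 and 709 of 834 WT but only 169 of 511 and 147 of 396 SDHA-KO stimulated CD8+ cells. The part of the annotated CD8+ cells that met its definition thus differed by genotype, and the bearing of this on the CD8+ counts was not tested.

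The balance was the opposite in cells under 10% mitochondrial UMIs. There 60 of the 84 genes were lower and 1 higher in SDHA-KO CD4+ cells (median -0.34, all genes 0.0020), against 32.8% of all genes called and 16.7% lower. In CD8+ cells 63 were lower and 3 higher (median -0.27), with a background of 35.4% called and 17% lower. The same comparison within the authors' Tem cells, chosen after seeing the data, gave 60 lower and 1 higher in CD4+ (31.7% of all genes called) and 67 and 3 in CD8+ cells (33.3%). WT stimulated CD4+ libraries held at least 319 Tem cells and 336 cells under 10%, with mean mitochondrial shares of 2.99 and 3.06%. The Tem set thus resembled the set under 10% in size and mitochondrial share, and its counts are not a separate check. Within Tcm cells, 62 were lower and 2 higher of 83 in CD4+ (25.1%) and 9 and 3 in CD8+ cells (27.9%). Mean mitochondrial shares of the Tcm cells differed by genotype, at 19.4% in WT and 10.7% in SDHA-KO CD4+ and 19.5% and 15.2% in CD8+ cells. The share of UMIs on the genes was 34.6 and 35.4% in WT and 31.5 and 30.2% in SDHA-KO CD4+ Tem cells, and 11.4 and 11.9% and 10.2 and 9.65% in CD4+ Tcm cells. In CD8+ cells it was 32.9 and 32.8% against 28.4 and 28.2% in Tem and 11.6 and 12.3% against 12.5 and 10.3% in Tcm cells, where the genotypes overlapped.

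**Figure D4:**
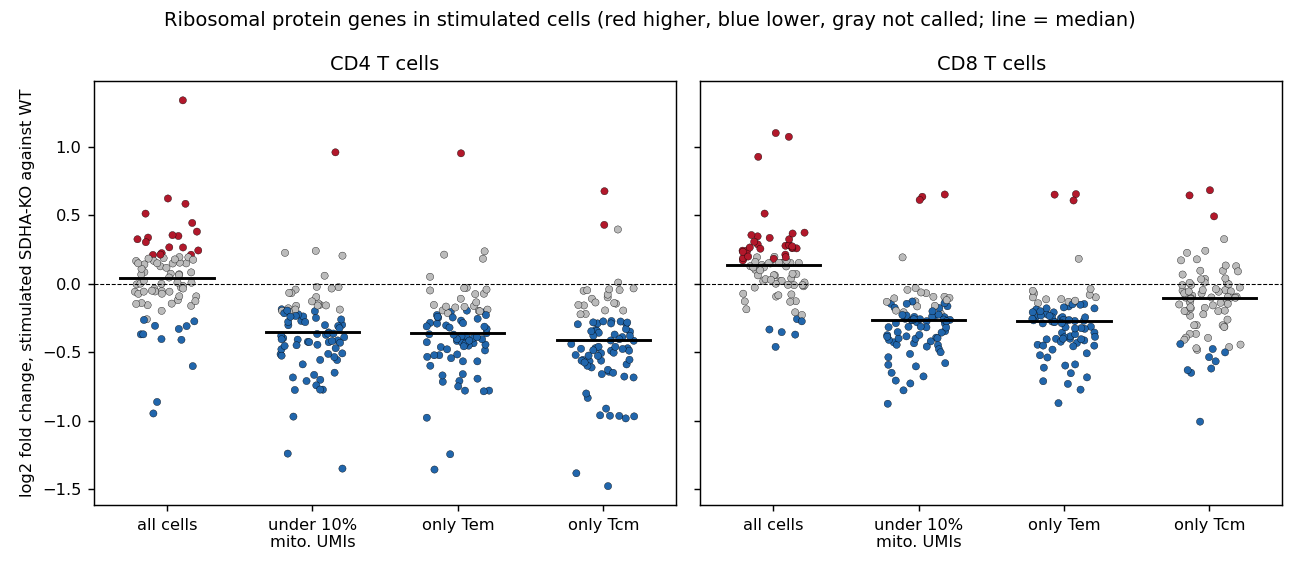
Log2 fold change of SDHA-KO against WT after stimulation (vertical axis) for each ribosomal protein gene except Rpl39l, in all cells, cells under 10% mitochondrial UMIs, Tem cells and Tcm cells, for CD4+ and CD8+ cells. Each point is a gene and each line the median. The median is 0.055 over all CD4+ cells and -0.34 in CD4+ cells under 10%, and Rps27l stays above 0 while Rpl41 and Rpl22l1 stay below it.

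Rpl41, Rpl22l1 and Rps2 were lower in SDHA-KO stimulated CD4+ cells in both sets of cells. Rpl41 stood at 5947 and 6065 CPM in WT and 3212 and 3018 in SDHA-KO (-0.95 ± 0.078, edgeR adjusted p = 6.3e-06). Rpl22l1, a paralog of Rpl22 that acts in T cell development, stood at 1173 and 1185 against 712 and 584 CPM (-0.86 ± 0.089, edgeR adjusted p = 2.9e-05). Rps2 stood at 7597 and 7487 against 5147 and 4792 CPM (-0.60 ± 0.080). The SDHA-KO libraries were below both WT libraries each time. Under 10% mitochondrial UMIs the changes were -1.35 ± 0.075, -1.24 ± 0.092 and -0.97 ± 0.077, and Rps2 stood at 9876 and 9603 CPM in WT and 5195 and 4748 in SDHA-KO. Rpl39 and Rpl37, of the large subunit, were lower as well (-0.41 ± 0.12 and -0.40 ± 0.10 over all cells, -0.77 ± 0.11 and -0.78 ± 0.097 under 10%).

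The same genes showed in CD8+ cells smaller differences by value. Rpl41 stood at 4541 and 4782 CPM in WT and 3695 and 3698 in SDHA-KO stimulated cells (-0.33 ± 0.063, edgeR adjusted p = 0.0011). Rpl22l1 stood at 955 and 1036 against 713 and 734 CPM (-0.46 ± 0.071, edgeR adjusted p = 0.00027). The SDHA-KO libraries lay below both WT libraries for both genes. Rps2 did not pass the test over all cells (5838 and 5931 against 5619 and 5568 CPM, -0.073 ± 0.060) and was lower in cells under 10% mitochondrial UMIs (-0.46 ± 0.051). The other large falls over all CD8+ cells were Rps21 (-0.37 ± 0.085), Rpl39 (-0.35 ± 0.11) and Rps28 (-0.27 ± 0.098), and in the cells under 10% these changed by -0.65 ± 0.067, -0.73 ± 0.083 and -0.68 ± 0.074.

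Rps27l moved the other way in both classes. Its level was 418 and 427 CPM in WT and 961 and 1174 in SDHA-KO stimulated CD4+ cells (1.34 ± 0.10, edgeR adjusted p = 4.1e-06). The CD8+ levels were 391 and 410.4 against 816 and 869 CPM (1.07 ± 0.092, edgeR adjusted p = 5.9e-06). Every SDHA-KO stimulated library was above every WT one. Rps27l was also higher in the cells under 10% (0.96 ± 0.097 and 0.65 ± 0.089), where it was the only gene called higher in CD4+ cells. Its partner Rps27 did not pass the test over all cells in either class (-0.059 ± 0.10 and -0.23 ± 0.092) and was lower in SDHA-KO in those under 10% (-0.43 ± 0.097 and -0.60 ± 0.067). Rps19bp1 went from 43.8 and 44.8 to 89.3 and 101 CPM in CD8+ cells (1.10 ± 0.091), and Rpl7l1 from 74.3 and 78.2 to 144 and 146 (0.93 ± 0.070). Both were higher in CD8+ cells under 10% too (0.63 ± 0.093 and 0.61 ± 0.068). In CD4+ cells they were higher over all cells (0.62 ± 0.089 and 0.51 ± 0.082) but did not pass the test in those under 10% (0.22 ± 0.089 and 0.20 ± 0.081).

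Other genes called higher over all cells depended on the choice of cells. Rps19, mutated in Diamond-Blackfan anaemia, stood at 3775 and 4061 CPM in WT and 5294 and 5359 in SDHA-KO stimulated CD4+ cells (0.44 ± 0.076), and in cells under 10% mitochondrial UMIs the difference was 0.058 ± 0.069 and did not pass the test. Rps27rt was higher over all cells (0.58 ± 0.12 and 0.51 ± 0.14), but its reads may be split with Rps27. Rpl39l was called higher in CD4+ cells (1.32 ± 0.49) at only 0.694 and 1.04 CPM in WT and 2.60 and 1.78 in SDHA-KO libraries.

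Before stimulation few genes passed the test between genotypes. In CD4+ cells edgeR called none of the 84 genes (1.1% of all genes called, 0.526% higher and 0.575% lower), with 6 at an unadjusted p under 0.05, and DESeq2 called 1 (2.18% of all genes). The median log2 fold change was -0.016. In CD8+ cells 6 genes were called, 1 higher and 5 lower (0.947% of all genes called, 0.283% higher and 0.664% lower), and the median of the 84 was -0.21. Rps27l was higher, at 128 and 116 CPM in WT and 199 and 159 in SDHA-KO (0.55 ± 0.11, edgeR adjusted p = 0.044). Rps27 was lower, at 14460.4 and 14693 against 10636 and 9917 CPM (-0.50 ± 0.092, edgeR adjusted p = 0.033). For both genes the libraries of the genotypes did not overlap. The other falls were Rps21 (-0.42 ± 0.085), the stalk proteins Rplp1 (-0.39 ± 0.062) and Rplp0 (-0.34 ± 0.061), and their neighbour in the large subunit Rpl12 (-0.37 ± 0.071).

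The CD8+ count changed with the libraries and the fit. It was 0 when WT unstimulated replicate 1 or 2 or SDHA-KO unstimulated replicate 1 was left out, 1 without SDHA-KO unstimulated replicate 2, and 29 and 30 without WT stimulated replicates 1 and 2 (1.12% and 1.29% of all genes). DESeq2 called 28 of the ribosomal protein genes (2.28% of all genes), a fit of the 4 unstimulated libraries alone called 42 (3.41%), and the edgeR fit on cells under 10% mitochondrial UMIs called 28 (1 higher, 27 lower, 1.32% of all genes). With a minimum of 1.2-fold none was called. The share of UMIs was 38.98 and 39.3% in WT and 37.3 and 35.4% in SDHA-KO. In the strict CD8+ class the share was 39.1 and 39.2% and 38.3 and 36.1%, and 4 genes were called (1.86% of all genes). The gamma-delta markers summed to 232 and 174 CPM in these SDHA-KO sums and 28.8 and 26.1 in WT, and their part in the count was not tested.

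Whether the genotype difference changed with stimulation was tested as an interaction, on the same libraries as the comparisons above and so not independent of them. In CD4+ cells 9 of 84 genes were called, 5 with a higher and 4 with a lower SDHA-KO effect after stimulation (21.4% of all genes called). The 4 with the lower effect were Rpl22l1 (-0.999 ± 0.13, edgeR adjusted p = 0.00042), Rpl41 (-0.94 ± 0.11), Rps2 (-0.62 ± 0.11) and Rps26 (-0.47 ± 0.12). Among the 5 with the higher effect were Rps27l (1.07 ± 0.15), Rps27rt (0.63 ± 0.17), Rps19bp1 (0.51 ± 0.15) and Rpl32 (0.36 ± 0.11), and Rpl32 and Rps26 were picked for naming after their values were seen. The count was 5, 4 and 31 without WT unstimulated replicate 1, WT unstimulated replicate 2 and SDHA-KO unstimulated replicate 1 (11.4%, 11.1% and 17.2% of all genes). DESeq2 called 25 (19% of all genes), and in cells under 10% mitochondrial UMIs 37 were called, 36 of them with the lower effect (14.2% of all genes).

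In CD8+ cells 49 were called, 48 with the higher effect and only Rpl22l1 with the lower one (23.7% of all genes, 13.5% higher). The direction of this count depended on the cells, since under 10% mitochondrial UMIs 17 of 18 had the lower effect (11.1% of all genes). Among the named genes the largest differences over all cells were Rps19bp1 (1.06 ± 0.17), Rpl7l1 (0.83 ± 0.12) and Rps27rt (0.71 ± 0.20), and the stalk gene Rplp1 (0.56 ± 0.088) and Rps6 (0.49 ± 0.10) were also called. Without one of WT unstimulated replicates 1 and 2, SDHA-KO unstimulated replicate 2 and SDHA-KO stimulated replicate 2, the count was 25, 17, 24 and 29, and with library-size scaling it was 23. The share of all genes called in each of these fits is not given here. These counts alone therefore do not show whether the ribosomal protein genes or the whole test moved.

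CD8+ and CD4+ cells of the same libraries were compared with the library as a block. In unstimulated WT cells 80 of the genes were higher in CD8+ cells and none lower (median 0.33), against 15.2% of all genes called and 7.98% higher. In unstimulated SDHA-KO cells 59 were higher (median 0.17, 14.9% of all genes called, 7.19% higher), and 16 without SDHA-KO unstimulated replicate 2 (5.56% of all genes). After stimulation the order turned. In WT, 79 were lower in CD8+ cells (median -0.27, 26% of all genes called, 13.8% lower), and in SDHA-KO 61 were lower and 6 higher (median -0.19, 49.2%), a count of 67 that was 35 in the strict class (32.4% of all genes). Rplp1 shows both orders, at 9591 and 9724 CPM in CD4+ and 12679.9 and 13014 in CD8+ unstimulated WT cells, and 6367 and 6244 against 4846 and 4923 after stimulation. Its differences were 0.44 ± 0.036, edgeR adjusted p = 1.9e-06, and -0.31 ± 0.036, edgeR adjusted p = 2.7e-05. The CPM values of the classes were scaled in separate fits, and the differences come from a joint fit. Mitochondrial shares also differed after stimulation, at 7.59 and 7.01% in CD4+ and 10.3 and 8.61% in CD8+ WT cells, and their part in this result was not tested.

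The SDHA-KO effect itself was compared between the classes in the same fit. Before stimulation edgeR called none of the ribosomal protein genes (0.0421% of all genes called), 66 stood at an unadjusted p under 0.05, 1 was called in the strict class (0.178% of all genes) and 3 without SDHA-KO stimulated replicate 1 or 2 (0.188% and 0.194%). After stimulation 24 were called, 22 with a higher effect in CD8+ than CD4+ cells and 2 with a lower one (25.4% of all genes called), with 13 and 15 without WT stimulated replicates 1 and 2 (15.2% and 17.1% of all genes), and 14 in the strict class (14.5%). Rpl41 (0.62 ± 0.054, edgeR adjusted p = 4.6e-06), Rps2 (0.54 ± 0.054, edgeR adjusted p = 1.4e-05) and Rpl22l1 (0.42 ± 0.086), all lower in SDHA-KO CD4+ cells, had the higher effect in CD8+ cells. Rps19bp1 (0.49 ± 0.076) and Rpl7l1 (0.42 ± 0.082) were more strongly raised in CD8+ cells, and Rps27l (-0.25 ± 0.066) and Rps29 (-0.17 ± 0.050) had the lower effect there.

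Paralogs that can stand in for a subunit changed against their partners. UMIs count molecules by their 3′ ends and are not scaled to length, so the share of a pair's UMIs is a share of captured molecules, and reads of near-identical copies may be split between them. Rps27l took 0.919 and 0.862% of the Rps27 and Rps27l UMIs in WT unstimulated CD4+ cells and 1.31 and 1.28% in SDHA-KO. After stimulation it took 16.3 and 14.1% in WT and 28.7 and 35.1% in SDHA-KO. The CD8+ shares were 0.880 and 0.781%, 1.83 and 1.58%, 18.8 and 16.3% and 33.3 and 35.1%. The 4 groups did not overlap in either class, and both the fall of Rps27 and the rise of Rps27l entered the share.

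Rpl22l1 behaved differently. Its share of the pair with Rpl22, an RNA-binding protein of the large subunit, was 31.1 and 30.3% in WT and 32.4 and 34.3% in SDHA-KO unstimulated CD4+ cells, and 38.4 and 36.5% and 28.1 and 24.5% after stimulation. In CD8+ cells it was 34.1 and 31.96%, 34.1 and 36.1%, 40.4 and 39.3% and 31.8 and 32.6%. WT stimulated libraries were the highest and SDHA-KO stimulated ones lay below them in both classes. Rpl22 itself fell on stimulation of WT cells (-0.33 ± 0.075 in CD4+ and -0.94 ± 0.073 in CD8+) and did not pass the test between genotypes after stimulation (-0.12 ± 0.075 and 0.018 ± 0.072). In cells under 10% mitochondrial UMIs its change on stimulation of WT CD4+ cells did not pass the test (0.12). There it was lower in SDHA-KO than WT stimulated CD8+ cells (-0.40).

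Rpl36al, a retrocopy of Rpl36a that keeps its reading frame, took 23.6 and 22.7% of the pair in WT unstimulated and 23.2 and 23.9% in SDHA-KO unstimulated CD8+ cells. It took 35.6 and 34.6% in WT stimulated and 41.2 and 42.2% in SDHA-KO stimulated cells, with the stimulated groups above the unstimulated ones. Rpl7l1 took 1.58 and 1.66% of the pair with Rpl7 in WT unstimulated and 6.29 and 6.16% in SDHA-KO stimulated CD8+ cells. Rpl39l, of the large-subunit exit tunnel like Rpl39, stayed at or below 0.132% of its pair in every library. The X-linked genes Rpl36a, Rpl39, Rpl10 and Rps4x all fell on stimulation of WT cells over all cells, with changes of -0.38 ± 0.085, -1.04 ± 0.12, -0.39 ± 0.087 and -0.32 ± 0.072 in CD4+ cells. Of these, Rpl36a, Rpl10 and Rps4x did not pass the test in CD4+ cells under 10% mitochondrial UMIs (0.042 ± 0.079, 0.042 ± 0.084 and 0.16 ± 0.066).

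Setting the library size to the sum of the ribosomal protein UMIs shows how each gene moved against the rest of the ribosome genes. On this scale 43 genes rose and 28 fell on stimulation of WT CD4+ cells (68.2% of all genes called, 52.2% higher and 16.1% lower), and 44 and 29 in CD8+ cells (81.5%, 73.6% higher and 7.87% lower). Rps27 fell by 1.94 and 1.82, and Rps2 rose by 1.61 and 1.49. Between genotypes after stimulation, 31 were higher and 19 lower in CD4+ (37.1%, 19.3% higher and 17.8% lower) and 24 and 18 in CD8+ cells (47.3%, 20.9% higher and 26.4% lower). Rpl41 changed by -0.95 ± 0.050 and -0.43 ± 0.047, and Rps27l by 1.33 ± 0.10 and 0.98 ± 0.082. In SDHA-KO, stimulation raised 42 and lowered 26 genes in CD4+ cells (68.8% of all genes called, 49.9% higher and 18.9% lower), and 41 and 27 in CD8+ cells (74.1%, 60.8% higher and 13.3% lower). The interaction called 21 genes in CD4+ (7.12% of all genes higher and 8.74% lower) and 22 in CD8+ cells (4.14% and 19.7%). Unstimulated, 2 genes were called between genotypes in CD4+ (1.07% of all genes) and 4 in CD8+ cells (4.73%, 4.41% higher and 0.313% lower). The fold changes on this scale are relative within the 84 genes and carry no information on their sum.

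Genes that encode short proteins had the lowest medians on stimulation. Coding length was taken from the principal transcript, and 22 of the 84 genes encode under 120 residues, 39 encode 120 to 200 and 23 over 200. On stimulation of WT CD4+ cells the medians of these bins were -0.66, -0.35 and -0.050, with 17 of 22, 26 of 39 and 9 of 23 called lower. The CD8+ medians were -1.35, -0.96 and -0.72. Other genes in the same bins had medians of -0.11, 0.24 and 0.13 in CD4+ cells. Spearman's rho between length and fold change across the 84 genes, which share libraries and are not independent replicates, was 0.40 in CD4+ and 0.33 in CD8+ WT cells, and 0.47 and 0.47 in SDHA-KO. Restricted to cells under 10% mitochondrial UMIs it was 0.41 and 0.34 in WT. For SDHA-KO against WT after stimulation it was 0.19 in CD4+ and 0.40 in CD8+ cells.

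**Figure D5:**
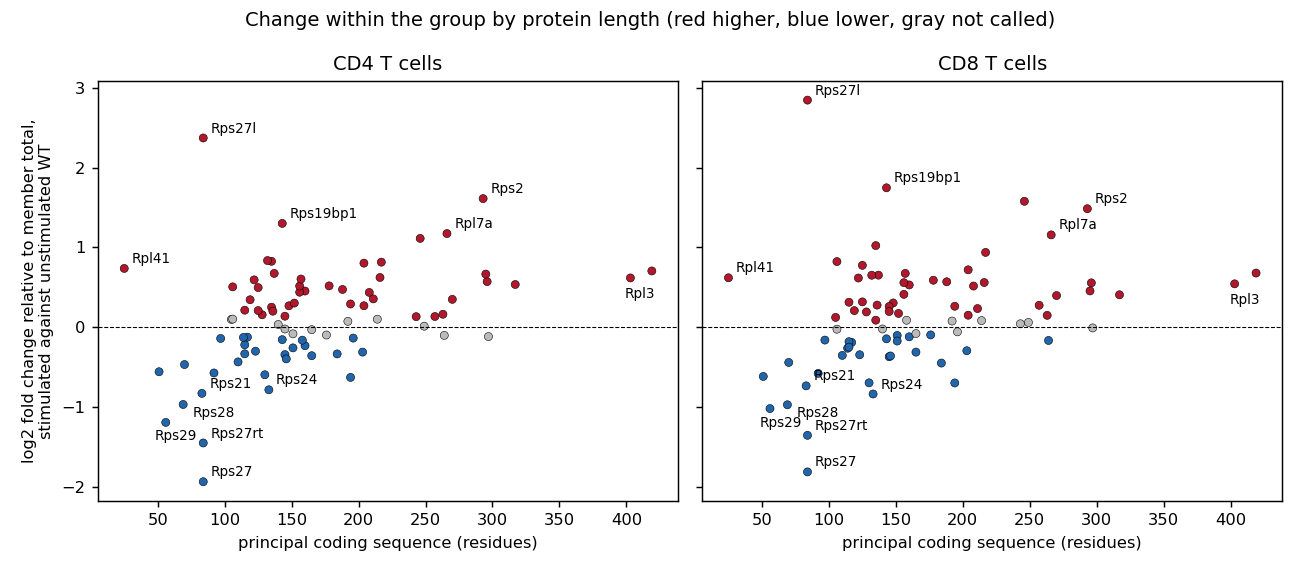
Log2 fold change on stimulation of WT cells relative to the ribosomal protein total (vertical axis) against the length of the principal coding sequence in residues (horizontal axis), for CD4+ and CD8+ cells, with 1 point per gene and Rpl39l left out. Genes under 120 residues have a median of -0.18 in CD4+ and -0.22 in CD8+ cells, and those over 200 residues 0.44 and 0.41.

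The P stalk, which recruits elongation factors to the large subunit, is built from Rplp0 and pairs of Rplp1 and Rplp2. On stimulation of WT CD4+ cells Rplp1 and Rplp2 fell (-0.62 ± 0.080 and -0.71 ± 0.086), while Rplp0 did not pass the test, at 5387 and 5479.8 CPM before and 5464 and 5792 after (0.051 ± 0.071). In CD8+ cells all 3 fell, Rplp1 from 12679.9 and 13014 to 4846 and 4923 CPM (-1.40 ± 0.063), Rplp2 by 1.31 and Rplp0 by 0.72. The Rplp0 values depended on the choice of cells. In WT CD4+ cells under 10% mitochondrial UMIs Rplp0 went from 5208 and 5272 to 7307 and 7634 CPM. In WT CD8+ cells of that set it went from 6559 and 6742 to 6257 and 6047 CPM. Rplp1 and Rplp2 were lower after stimulation in that set too, in both classes. Between genotypes after stimulation, Rplp0 was lower in SDHA-KO CD4+ cells (5464 and 5792 against 4589 and 4779.8 CPM, -0.26 ± 0.071, edgeR adjusted p = 0.011). All 3 genes, in cells under 10% mitochondrial UMIs, were lower in SDHA-KO, in CD4+ (-0.67 ± 0.064, -0.40 ± 0.076 and -0.37 ± 0.080) and in CD8+ cells (-0.28 ± 0.045, -0.24 ± 0.054 and -0.40 ± 0.059). Rplp1 was instead higher in SDHA-KO over all CD8+ cells (0.17 ± 0.062).

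Rpl5 and Rpl11 join the 5S rRNA in a particle that can also bind the p53 ligase MDM2. Rpl5 stood at 2918 and 3011 CPM in WT unstimulated and 1922 and 1980.3 in WT stimulated CD4+ cells (-0.60 ± 0.099), whereas Rpl11 did not pass the test (3529 and 3548 and 3489 and 3755 CPM, 0.034 ± 0.074). In WT CD4+ cells under 10% mitochondrial UMIs, Rpl11 went from 3412 and 3413 to 4511 and 4771 CPM on stimulation. Rpl5 went from 2821 and 2897 to 2454 and 2486 CPM in that set. Neither passed the test between genotypes after stimulation over all cells (Rpl5 0.073 ± 0.099 and 0.18 ± 0.077, Rpl11 -0.0054 ± 0.074 and 0.13 ± 0.064 in CD4+ and CD8+). Restricted to cells under 10%, Rpl11 was lower in SDHA-KO in both classes (-0.37 ± 0.069 and -0.24 ± 0.045), and Rpl5 in CD4+ cells (-0.27 ± 0.094).

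Rps6, the substrate of the S6 kinases, stood at 2177 and 2301 CPM in WT and 2826 and 2828 in SDHA-KO stimulated CD4+ cells (0.34 ± 0.093, edgeR adjusted p = 0.013). The CD8+ levels were 1764 and 1932 against 2158 and 2219 CPM (0.24 ± 0.073, edgeR adjusted p = 0.017). The SDHA-KO libraries were above both WT libraries, but neither difference passed the test in cells under 10% mitochondrial UMIs (-0.043 ± 0.088 and -0.16 ± 0.060). Rpsa, which doubles as a laminin receptor, did not pass the test between genotypes over all stimulated cells (-0.14 ± 0.075 and 0.070 ± 0.061) and was lower in SDHA-KO in those under 10% (-0.54 ± 0.070 and -0.35 ± 0.045).

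Other subunits are made as fusions or carry other names. Rps27a, which encodes ubiquitin joined to a small-subunit protein, stood at 4913 and 4938 CPM before and 4681 and 4857 after stimulation of WT CD4+ cells (-0.046 ± 0.072, not passing the test). It rose there in cells under 10% mitochondrial UMIs (0.39, edgeR adjusted p = 0.00032). Scaling by library size gave a rise over all CD4+ cells (0.17, edgeR adjusted p = 0.021). In stimulated CD8+ cells under 10% Rps27a was lower in SDHA-KO than WT (-0.38, edgeR adjusted p = 0.00010). Fau, outside the naming rule, which encodes eS30 behind a ubiquitin-like domain, fell on stimulation (-0.62 ± 0.074 and -1.17 ± 0.068), and Rack1, also outside it, the scaffold protein on the small-subunit head, was higher in SDHA-KO stimulated cells (0.45 ± 0.081 and 0.43 ± 0.066 in CD4+ and CD8+). The values of Fau and Rack1 are over all cells, and those in cells under 10% are not given here.

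The share of UMIs on the ribosomal protein genes was also compared within the authors' clusters of at least 10 cells in each library. In stimulated CD4+ cells the SDHA-KO libraries lay below the WT ones in 8 of 10 clusters. They were lower in Tem1 (29.95 to 30.6% in the SDHA-KO libraries against 36.05 to 36.2% in WT) and in Tem4 (28.3 to 28.5% in the SDHA-KO libraries against 36.8 to 38.2% in WT). They were higher in Tem7 (27.2 to 28.9% in the SDHA-KO libraries against 25.4 to 25.5% in WT) and overlapped in Tcm5. Mean mitochondrial shares were 6.61% in WT and 3.45% in SDHA-KO Tem7 cells, and 2.93% and 1.85% in Tem1. In stimulated CD8+ cells 3 clusters were lower, 3 were higher and 2 overlapped. Tem2 was lower (28.2 to 28.3% in the SDHA-KO libraries against 33.5 to 33.7% in WT) and Tem6 higher (28.9 to 30.1% in the SDHA-KO libraries against 16.05 to 18.4% in WT). Over nuclear UMIs alone the CD8+ clusters split into 4 lower, 3 higher and 1 overlapping.

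In unstimulated CD4+ cells SDHA-KO lay below WT in 4 of 7 clusters, among them Tem1 (21.2 to 21.3% in the SDHA-KO libraries against 26.02 to 27.1% in WT), above it in Treg (31.4 to 31.7% in the SDHA-KO libraries against 30.5 to 31.2% in WT) and overlapped in 2. In unstimulated CD8+ cells it lay below in 4 of 5, among them Tcm1 (30.3 to 33.4% in the SDHA-KO libraries against 36.1 to 37.4% in WT). Among unstimulated clusters the largest shares stood in Naive4, with 40.4 to 43.2% in the SDHA-KO libraries against 42.8 to 43.7% in WT of CD4+ cells, which overlapped, and 41.9 to 43.7% in the SDHA-KO libraries against 43.9 to 44.2% in WT of CD8+ cells. With 2 libraries against 2 these orders carry no test, and whether the ribosomal protein genes entered the clustering is not given in the sources used here.

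The 78 genes of the mitochondrial ribosome, which translates the mRNAs of mitochondrial DNA, were set beside the cytosolic set. On stimulation of WT cells 68 of them rose and 2 fell in CD4+, and 57 and 7 in CD8+ cells, with the shares of all genes as given above. In SDHA-KO stimulated cells 59 were higher and 0 lower than in WT in CD4+ (median 0.45), and 75 and 0 in CD8+ cells (median 0.65). The medians of the cytosolic set in the same comparison were 0.055 and 0.14. In cells under 10% mitochondrial UMIs the mitochondrial set had 18 higher and 8 lower (median 0.091) in CD4+ and 47 and 1 (median 0.30) in CD8+ cells, against -0.34 and -0.27 for the cytosolic set.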

How the data were processed

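Raw UMI counts per gene and cell were deposited by the authors for 8 libraries of splenic T cells. The authors demultiplexed reads with bcl2fastq, aligned and counted them with Cell Ranger (build mm10 per the processing notes), removed cells above a limit of detected genes and clusters without Cd3 genes in Seurat, and named classes and clusters. The deposited metadata also held the percent of mitochondrial UMIs and a log10 Cd4-to-Cd8a ratio per cell, and its UMI totals and mitochondrial percentages were checked against the counts. No column of per-sample values was left unused (0 columns). Doublet treatment beyond the authors' filter is not given in the sources used here, and no doublet caller was run.

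Counts were summed per library and class and tested with edgeR 4.0.16 (R 4.3.3, quasi-likelihood, filterByExpr, TMM, all 8 libraries, 4 group means), which left 14264 genes in CD4+ and 13095 in CD8+ sums, with a replicate coefficient of variation of 8.73% and 8.24%. Replicates differed beyond sampling noise (chi-square per degree of freedom 5.65 to 122 over the ribosomal protein genes). Data were simulated for SDHA-KO against WT stimulated, with changes in some genes above 20 CPM and a common spread for all genes. In CD4+ cells 84.1% of 107 genes changed 1.5-fold and 100% of 93 changed 2-fold were recovered, among 13690 run. In CD8+ cells it was 94.00% and 100% of 100 genes each, among 12477 run. Far more genes were called in the real data, so these rates need not hold there. The comparison of classes used 1 fit of 16 sums with the library as block. Alternatives were DESeq2 1.42.0, other scalings, no filter, a replicate block, 4 libraries only, a 1.2-fold minimum, cells under 10% mitochondrial UMIs, a strict class, no mitochondrial genes and each library left out, and, chosen after seeing the data, Tem or Tcm cells only. The genes and lists were chosen with earlier results of these data known. Genes were named by rule, as the 5 largest called rises and falls of at least 20 CPM with groups that did not overlap, per contrast and class, plus a list of stalk, 5S particle, paralog and fusion genes and, in the other lists, the 2 largest rises and falls. Values of a few single genes are not reported here. Python 3.11.15 and matplotlib 3.10.9 drew the plots.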

Additional observations from a re-analysis of the deposited data

Results flagged for a closer look

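A difference between 2 effects that passed its own edgeR test (adjusted p under 0.05 over all genes) set the following results apart. The values are differences of log2 fold changes, with 2 libraries in each group. In CD4+ cells the SDHA-KO effect differed between stimulated and unstimulated cells for 9 ribosomal protein genes, and among those named here the differences, stimulated minus unstimulated, were Rps27l (1.07), Rps27rt (0.63), Rps19bp1 (0.51), Rps2 (-0.62), Rpl41 (-0.94) and Rpl22l1 (-0.999). In CD8+ cells 49 differed in this way, among them Rps19bp1 (1.06), Rpl7l1 (0.83), Rps27rt (0.71), Rplp1 (0.56), Rps27l (0.52), Rpl12 (0.51), Rplp0 (0.49), Rps6 (0.49), Rps19 (0.45), Rps29 (0.43), Rpl5 (0.42), Rpl7a (0.40), Rpl36al (0.40), Rpl7 (0.37), Rpl10 (0.35), Rps24 (0.33), Rpsa (0.31), Rpl11 (0.28) and Rpl22l1 (-0.44).

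The SDHA-KO effect after stimulation differed between the classes for 24 genes, and the differences, CD8+ minus CD4+, included Rpl41 (0.62), Rps2 (0.54), Rps19bp1 (0.49), Rpl7l1 (0.42), Rplp0 (0.42), Rpl22l1 (0.42), Rpl7 (0.31), Rpl7a (0.28), Rpsa (0.22), Rpl37 (0.20), Rplp1 (0.19), Rps27a (0.16), Rps29 (-0.17) and Rps27l (-0.25). All of these values are over all cells. The part of mitochondrial content or of the gamma-delta receptor markers in these differences was not tested.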

How the results depend on the processing

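Over the alternatives tried without leaving out a library, 108 of 138 counts of called genes lay within 1.5 times the reported count, as did 166 of 208 with 1 library left out. These tallies took the total called and not its direction. Stimulation of WT CD4+ cells counted as within the limit under 10% mitochondrial UMIs (64 and 58 called), although 12 rises and 52 falls became 34 and 24. Where a count or share moved, the cause was not tested unless the alternative itself had fewer cells or libraries. With fewer than 3 libraries a group the spread is pooled over groups, and the depth of the shallowest sums limits what single low genes such as Rpl39l can show. The labels do not say whether the replicate numbers pair libraries across groups, and the main fits took them as unpaired. The correlation of deviations between same-numbered libraries ran from -0.0819 to 0.0598. With a single deviation per gene and group, these values cannot exclude a pairing. With the replicate number as a block, 3 genes were called in unstimulated CD8+ cells in place of 6, and no other count moved by over 1.5 times.

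Counts of called genes moved as follows, and the share of all genes called is given above for some of these fits only. A count without that share does not show whether the ribosomal protein genes or the whole test moved. For SDHA-KO against WT, unstimulated CD8+ cells gave 2 by library size, 28 by DESeq2, 14 without a filter, 42 with only 4 libraries, 0 at 1.2-fold and 28 under 10% mitochondrial UMIs, and CD4+ cells gave 1 by DESeq2 and 2 without a filter. For stimulated cells 1.2-fold gave 8 (CD4+) and 6 (CD8+), under 10% gave 61 and 66, only Tem cells 61 and 70, and only Tcm cells 64 and 12. Stimulation of WT CD4+ cells gave 42 at 1.2-fold. The interaction in CD4+ cells gave 16 by library size, 25 by DESeq2, 24 without a filter, 4 at 1.2-fold and 37 under 10%, and in CD8+ cells 23 by library size, 16 at 1.2-fold and 18 under 10%. The strict class gave 4 for unstimulated CD4+ cells relative to the ribosomal protein total, 35 for CD8+ against CD4+ in stimulated SDHA-KO, and 1 and 14 for the SDHA-KO effect in CD8+ minus CD4+, unstimulated and stimulated.

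With 1 library left out in turn, counts ranged over 17 to 47 and 19 to 45 for SDHA-KO against WT stimulated in CD4+ and CD8+ cells, 0 to 30 for CD8+ unstimulated, 4 to 31 and 17 to 63 for the interaction, 16 to 69 for CD8+ against CD4+ in unstimulated SDHA-KO, and 0 to 3 and 13 to 25 for the SDHA-KO effect in CD8+ minus CD4+. Relative to the ribosomal protein total they ranged over 0 to 5 and 0 to 8 for SDHA-KO against WT unstimulated and 10 to 24 and 6 to 25 for the interaction. The share of all genes called is given above for some of these fits and not for all of them. The share difference by genotype ranged over -1.99 to 0.899 in unstimulated CD4+ cells, reaching 0.899 without SDHA-KO unstimulated replicate 2, and -0.238 to 1.36 in stimulated CD8+ cells, reaching -0.238 without WT stimulated replicate 1.

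The share of UMIs, SDHA-KO minus WT after stimulation, was 0.570 points in CD4+ and 0.560 in CD8+ cells. It turned to -0.985 and -0.810 over nuclear UMIs, -4.11 and -4.60 under 10%, -4.19 and -4.54 in Tem and -1.74 and -0.550 in Tcm cells. It was 1.39 and 2.91 in the strict class and 6.61 and 3.02 as a mean over cells. In unstimulated CD4+ cells the strict class gave 0.248. Stimulated minus unstimulated in WT was -4.96 and -13.3 over nuclear UMIs, -0.410 and -6.80 under 10%, and -13.7 and -21.3 as a mean over cells. In SDHA-KO the mean over cells gave -6.53 and -15.5, and in CD8+ cells under 10% gave -8.64 and the strict class -9.003.

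Among the named genes, 70 single values changed sign with the gene called in the reported or the alternative fit. Sign changes of genes called in neither fit were not counted. Under 10% mitochondrial UMIs, log2 fold changes of SDHA-KO against WT stimulated were the reverse of the reported sign in CD4+ cells for Rpl12 (-0.30), Rps24 (-0.20), Rpl5 (-0.27), Rps6 (-0.043), Rpl36al (-0.22), Rpl3 (-0.38), Rpl10 (-0.36) and Rps4x (-0.24), and in CD8+ cells for Rps19 (-0.070), Rpl7a (-0.18), Rplp1 (-0.24), Rpl12 (-0.27), Rplp0 (-0.28), Rps24 (-0.26), Rpsa (-0.35), Rpl11 (-0.24), Rps6 (-0.16), Rps27a (-0.38), Rpl36al (-0.12), Rpl22 (-0.40), Rpl3 (-0.36), Rpl10 (-0.32), Rps4x (-0.27) and Rpl7 (-0.31). So were stimulation changes of WT for Rps27a (0.39), Rpl22 (0.12), Rpl36a (0.042), Rpl10 (0.042), Rps4x (0.16) and Rpl7 (0.31) in CD4+ and Rpl41 (0.11), Rpl22l1 (0.060) and Rpl36al (0.26) in CD8+ cells. In Tem cells the genotype change turned for Rpl12 (-0.30), Rpl5 (-0.29), Rps6 (-0.049), Rpl36al (-0.23), Rpl3 (-0.39), Rpl10 (-0.37) and Rps4x (-0.25) in CD4+ and Rps19 (-0.082), Rpl7a (-0.18), Rplp1 (-0.24), Rpl12 (-0.28), Rplp0 (-0.27), Rps24 (-0.27), Rpsa (-0.36), Rpl5 (-0.17), Rpl11 (-0.24), Rps6 (-0.17), Rps27a (-0.39), Rpl36al (-0.12), Rpl22 (-0.41), Rpl3 (-0.37), Rpl10 (-0.33), Rps4x (-0.28) and Rpl7 (-0.31) in CD8+ cells. In Tcm cells it turned for Rps27rt (-0.10), Rps19 (-0.035), Rpl12 (-0.68), Rps24 (-0.56), Rps6 (-0.29), Rpl3 (-0.28) and Rpl10 (-0.65) in CD4+ and Rplp1 (-0.093), Rps6 (-0.098) and Rpl36al (-0.051) in CD8+ cells. By library size, stimulation changes of WT turned for Rps27a (0.17) in CD4+ and Rpl36al (0.18) in CD8+ cells, and the strict class turned Rps29 (0.33) for SDHA-KO against WT stimulated in CD8+ cells.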

Other observations

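Genes that build, load or regulate ribosomes, in lists chosen with earlier results known, moved beside the ribosomal protein genes. Of 24 ribosome biogenesis genes, 22 rose and 1 fell on stimulation of WT CD4+ cells, and 22 rose in CD8+ cells with none lower (medians 0.997 and 0.82, against 0.081 and 0.088 for all genes). Of all genes tested, 36.2% rose and 30.1% fell in CD4+ and 35.5% and 30.3% in CD8+ cells, the background for each list here. Ncl, which encodes nucleolin, rose (2.12 ± 0.085 and 2.18 ± 0.073). In SDHA-KO stimulated cells 12 were higher and 1 lower than in WT in CD4+ (Npm1, a nucleolar chaperone, -0.65 ± 0.084), and all 24 were higher in CD8+ cells (Bysl, a factor of small-subunit maturation, 1.36 ± 0.092). Of all genes tested, 22.7% were higher and 20.5% lower in CD4+ and 26.8% and 23.5% in CD8+ cells. In cells under 10% mitochondrial UMIs 5 were higher and 3 lower in CD4+ and 21 higher in CD8+ cells, where 16% and 16.7% of all genes were higher and lower in CD4+ and 18.4% and 17% in CD8+ cells. Of 5 chaperones dedicated to ribosomal proteins, 3 in CD4+ and 4 in CD8+ cells were higher in SDHA-KO after stimulation, among them Grwd1, the carrier of Rpl3 (1.66 ± 0.10 in CD8+ cells). Under 10%, 3 and 4 were higher and 1 lower in each class.

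Initiation factors split. Of 13 eIF3 subunits, 9 rose and 2 fell on stimulation of WT CD4+ cells (Eif3c 1.47 ± 0.086, Eif3f -0.49 ± 0.084), and 7 and 4 in CD8+ cells. Of 12 genes of the cap-binding group, 8 rose and 3 fell in CD4+ and 9 and 2 in CD8+ cells. On stimulation 66.3% of all genes were called in CD4+ and 65.7% in CD8+ cells. Eif4ebp1, a translation repressor that mTORC1 inactivates, rose from 8.01 and 5.99 to 213 and 205 CPM in WT CD4+ cells (4.91 ± 0.14) and stood at 67.04 and 58.1 CPM in SDHA-KO stimulated ones (-1.74 ± 0.097). In SDHA-KO stimulated cells 4 eIF3 genes were higher in CD4+ and 12 in CD8+ cells, with none lower, but under 10% mitochondrial UMIs 9 were lower and 1 higher in CD4+ and 3 higher in CD8+ cells. Of 5 elongation factor genes, 2 in CD4+ and 4 in CD8+ cells were higher in SDHA-KO, against 22.7% and 26.8% of all genes. Under 10%, 2 of the 5 were lower and none higher in CD4+ cells, and 1 was higher and 1 lower in CD8+ cells. Of 10 genes of mTORC1 and S6 kinase signalling, 3 rose on stimulation of WT cells in each class (Mtor 0.88 ± 0.11 and 0.96 ± 0.12), and 1 in CD4+ and 3 in CD8+ cells differed by genotype after it, shares near or below the background of 36.2% and 35.5% higher on stimulation and 43.2% and 50.4% called by genotype. Of the 2 nascent chain factors, Naca was higher in SDHA-KO in both classes (0.28 ± 0.082 and 0.46 ± 0.067), but under 10% 1 of the 2 was lower in CD4+ and none was called in CD8+ cells.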
